A study of Mus musculus with 48 samples.

Results

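The comparison set monocyte libraries with high Irf7 against monocyte libraries with low Irf7, in clonal mouse ER-Hoxb8 cells. The series holds 48 RNA-seq libraries of 24 clones, each clone sequenced once as a granulocyte-monocyte progenitor culture and once as a monocyte culture. ER-Hoxb8 cells are bone marrow myeloid progenitors kept dividing by Hoxb8 fused to the hormone-binding domain of the estrogen receptor, so every library comes from a line that is 1 immortalised clone, and all groups share this transgene. No treatment separates the groups, and the labels give no time in culture, strain, age or infection. The labels put monocyte libraries under the word minus and progenitor libraries under the word plus, words that the sources used here do not explain. Libraries were chosen by their measured Irf7 level, ranked among 22 of the 24 monocyte libraries, without clones 8 and 26. Ranking was done separately in clones 1 to 13 (12 libraries) and clones 15 to 26 (10 libraries), called the sets here. The 4 highest of each set made the Irf7-high group (n = 8) and the 4 lowest made the Irf7-low group (n = 8), 16 of 48 libraries in all, and the 6 between them were called middle. Each clone is 1 library per state, so p-values measure the spread between clones and nothing within a clone.

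Irf7 is the interferon regulatory factor that amplifies type I interferon production. In a resting cell it is kept low, and signalling from the type I interferon receptor raises it together with the interferon-stimulated genes. Those genes encode antiviral effectors, sensors of foreign nucleic acid, guanylate-binding and immunity-related GTPases and the antigen presentation machinery. Monocytes and macrophages also hold a low level of these transcripts without infection, known as tonic interferon signalling.

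The factors of this pathway bind the interferon-stimulated response element, searched here on both strands as GAAA, any 2 bases (NN) and GAAA again, so that a match on the other strand reads TTTC, NN and TTTC. Matches may overlap. The promoters of Irf7, which ranked the libraries, and of 3 antiviral genes that parted the groups are shown from RefSeq on GRCm38.p6. Each runs 5′ to 3′ in the direction of the gene, from 250 bases before to 50 bases after its start, with motif matches in capitals. They lie at chr7:141266375-141266674 (minus strand) for Irf7, chr4:156200769-156201068 (minus) for Isg15, chr19:34583279-34583578 (plus) for Ifit3 and chr19:34640639-34640938 (plus) for Ifit1.
Irf7: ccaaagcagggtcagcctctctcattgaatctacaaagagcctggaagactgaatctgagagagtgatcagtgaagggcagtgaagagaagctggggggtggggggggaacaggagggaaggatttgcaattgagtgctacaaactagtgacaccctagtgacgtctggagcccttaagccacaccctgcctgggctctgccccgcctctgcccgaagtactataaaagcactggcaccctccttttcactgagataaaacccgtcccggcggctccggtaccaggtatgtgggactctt
Isg15: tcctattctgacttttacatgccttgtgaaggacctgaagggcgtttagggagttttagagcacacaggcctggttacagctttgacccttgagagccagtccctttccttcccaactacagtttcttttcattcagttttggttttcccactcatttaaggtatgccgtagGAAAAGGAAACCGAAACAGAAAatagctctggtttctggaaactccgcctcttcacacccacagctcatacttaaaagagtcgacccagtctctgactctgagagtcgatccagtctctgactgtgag
Ifit3: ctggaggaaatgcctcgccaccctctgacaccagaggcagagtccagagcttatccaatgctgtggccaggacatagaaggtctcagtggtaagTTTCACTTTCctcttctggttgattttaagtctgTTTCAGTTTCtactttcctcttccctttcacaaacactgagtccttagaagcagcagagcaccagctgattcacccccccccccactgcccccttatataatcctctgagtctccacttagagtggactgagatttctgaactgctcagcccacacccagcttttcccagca
Ifit1: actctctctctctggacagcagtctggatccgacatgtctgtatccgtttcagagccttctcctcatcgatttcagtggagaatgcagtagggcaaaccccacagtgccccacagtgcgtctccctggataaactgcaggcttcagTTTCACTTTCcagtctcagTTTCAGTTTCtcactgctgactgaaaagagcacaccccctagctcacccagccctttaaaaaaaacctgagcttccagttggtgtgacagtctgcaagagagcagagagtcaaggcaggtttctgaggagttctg
The Isg15 window held 3 overlapping matches, written as 1 run of capitals, and the Ifit3 and Ifit1 windows held 2 each, on the other strand. The Irf7 window held 0, which says only that these letters are not in it. The motif was in 3.44% of 32851 promoter windows of this length and in 4.23% of the 7833 tested genes with a window. It was in 39.6% of the 159 interferon list genes with a window. The share was highest in guanylate-binding and immunity-related GTPases (10 of 10) and PYHIN genes (9 of 12). Low shares were found in sensors and adaptors (3 of 18), receptor and JAK-STAT genes (2 of 12), chemokines (1 of 8) and interferon regulatory factors (1 of 9). The motif was in 1 of 12 macrophage marker genes. Among windows not shown, those of Oasl2, Irf9 and C1qb held 0 matches, Rsad2, Slfn5 and Stat2 held 1 each and Oas1a held 2.

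Irf7 (chromosome 7, 141262706 to 141266481, minus strand, GRCm38) chose the groups, so its monocyte levels are a description and were not tested. Values are TPM, abundances of transcripts per unit of length as a share of the library, from which the sequencing depth cannot be read. In the Irf7-high group Irf7 was at 118 TPM in clone 13, 44.1 in clone 6, 40.1 in clone 7 and 33.5 in clone 4, and at 1948 TPM in clone 15, 31.8 in clone 24, 30.6 in clone 18 and 29.0 in clone 20. In the Irf7-low group it was at 20.8 TPM in clone 12, 20.1 in clone 10, 10.2 in clone 3 and 4.72 in clone 9, and at 11.5 TPM in clone 21, 11.4 in clone 17, 2.60 in clone 19 and 1.90 in clone 22. Clone 15 stood far above all other libraries. The other 7 Irf7-high libraries ran from 29.0 to 118 TPM, and 3 Irf7-low libraries lay under 5 TPM. At the edge of the Irf7-high group, clone 4 (33.5 TPM) was the last inside and clone 5 (29.0 TPM) the first outside in the first set, and clone 20 (29.0 TPM) and clone 16 (28.3 TPM) in the second. At the edge of the Irf7-low group these were clone 12 (20.8 TPM) and clone 1 (23.7 TPM), and clone 21 (11.5 TPM) and clone 23 (27.3 TPM). The step was widest at the low edge of the second set and narrowest at its high edge.

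**Figure D1:**
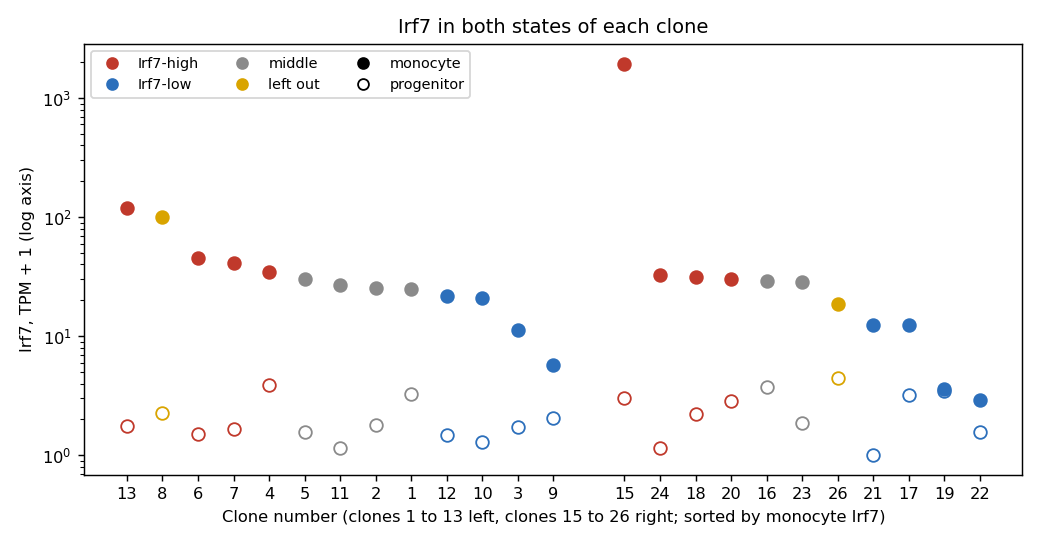
Irf7 as TPM + 1 on a log axis in the monocyte library (filled) and the progenitor library (open) of each of the 24 clones, sorted by monocyte Irf7 within each set and coloured by group. Monocyte clone 15 lies at 1948 TPM, and the progenitor libraries lie between 0 and 3.49 TPM.

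The total of deposited TPM ran from 982723 to 997305 in the monocyte libraries, and 9436 to 10717 genes reached 1 TPM. Mitochondrial transcripts took 1.98, 4.29 and 15.9% of TPM (lowest, median and highest) in Irf7-high libraries and 2.45, 5.94 and 19.2% in Irf7-low libraries. Markers set beside the label gave a mixed picture in both groups. The classical monocyte markers summed to 7109, 13203 and 19817 TPM (lowest, median, highest) in Irf7-high libraries and 2171, 7891 and 21540 TPM in Irf7-low libraries. Neutrophil and secondary granule genes summed to 14561, 95448 and 208902 TPM in Irf7-high libraries and 507, 104059 and 250189 TPM in Irf7-low libraries. At the median of both groups, this list of 20 genes thus took a larger share than the list of 15 monocyte markers in libraries labelled monocytic. It holds the calcium-binding S100a8 and S100a9, at up to 49870 and 76216 TPM, so its sum is not one of granule transcripts alone. The 12 markers of plasmacytoid dendritic cells, the cells best known for constant Irf7, summed to 31.1, 164 and 1128 TPM in Irf7-high libraries and 14.8, 59.0 and 110 TPM in Irf7-low libraries. Bst2, itself an interferon-stimulated gene, reached 1119 TPM, Cox6a2 20.3 TPM, Runx2 9.73 TPM and Tcf4 6.68 TPM. The other 8 stayed under 0.2 TPM, among them Siglech at up to 0.0971 TPM and Ccr9 at up to 0.149 TPM, with Ly6d and Cd209d listed at 0 in all 16 libraries. The part of such cells in the differences below was not tested. T, B and natural killer cell genes such as Cd3e, Ncr1 and Gzma were also listed at 0 in all 16. In such bulk cultures fewer cells of a type and less RNA per cell cannot be told apart.

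In the comparison of the groups, the PYHIN and OAS families had the highest list medians in favour of Irf7-high monocytes, yet no single gene passed the test of 8 against 8. limma on log2(TPM + 1) with set as a covariate called 0 of 10786 tested genes (0%) at a Benjamini-Hochberg adjusted p of 0.05, and the smallest adjusted p was 0.390. At an unadjusted p under 0.05 there were 910 genes, 857 higher in Irf7-high monocytes (7.95%) and 53 lower (0.491%). Leaving out clone 15 also gave 0 calls, with 574 genes higher (5.32%) and 34 lower (0.315%) at an unadjusted p under 0.05. A difference of at least 1 on the log2 scale was found for 464 genes (4.3%), and one of at most -1 for 50 (0.464%). The scale itself leaned one way: 7459 genes (69.2%) had a difference above 0, and the median of all tested genes was 0.14, or 0.07 with TPM rescaled without mitochondrial and pseudogene-like entries. In 29 genes (0.269%) every Irf7-high library lay above every Irf7-low library within both sets, and 0 genes lay the other way.

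A second fit used the place of each library in the Irf7 ranking of its set, scaled from 0 (lowest) to 1 (highest), over all 22 ranked libraries. Its slope is the log2 difference between the bottom and the top of the ranking. This rank fit, an alternative to the 2 groups, called 260 genes (2.41%), all higher with higher Irf7. Of these, 60 belonged to the interferon lists, which have 170 tested genes, and 20 to the lists of macrophage markers, classical monocyte markers and lysosome genes. Without clone 15 it called 83 genes (0.77%), 78 of them shared with the 260. Without clones 9, 19 and 22, the 3 libraries lowest in Irf7, it called 0, with 515 at an unadjusted p under 0.05. Among single clones left out, the count was 49 without clone 9, 89 without clone 19, 100 without clone 13, 119 without clone 22, 151 without clone 3 and 463 without clone 1. The calls therefore depended both on clone 15 and on the low end of the ranking. In the next paragraphs a pair in parentheses gives a gene's rank slope and its Benjamini-Hochberg adjusted p in limma, and 3 TPM values give the lowest, the median and the highest library of a group.

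Of the antiviral effectors, 32 of 34 genes were tested and all 32 had a difference above 0, with a median of 1.32 (0.86 without clone 15). In the rank fit 16 of them rose with Irf7, 11 without clone 15, and in 6 the groups did not overlap within either set. The filter of a mean of 1 TPM was taken over all ranked libraries, clone 15 included, and the same genes were kept without it. A gene can thus be tested because of that library alone. Mx1, for one, was at 103 TPM there, with a median under 1 TPM in both groups. Counts of differences above 0, here and in the other lists, can lean upward for this reason. Isg15, a ubiquitin-like modifier (chromosome 4, 156199424 to 156200818, minus strand), had 71.4, 23.3, 13.7 and 16.1 TPM in Irf7-high clones 13, 6, 7 and 4, and 577, 20.1, 17.3 and 10.7 TPM in clones 15, 24, 18 and 20. It had 12.5, 9.12, 5.57 and 2.31 TPM in Irf7-low clones 12, 10, 3 and 9, and 8.43, 3.02, 6.92 and 1.21 TPM in clones 21, 17, 19 and 22. Within each set all Irf7-high libraries were above all Irf7-low ones, with a difference of 2.40 ± 0.69 (SE). Its rank slope was 3.88 ± 0.66 (SE), adjusted p = 0.00507 in limma and 0.00107 without clone 15.

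Ifit3, which binds viral RNA together with Ifit1 (chromosome 19, 34583531 to 34588731, plus strand), had 57.1, 12.3, 8.44 and 6.44 TPM in Irf7-high clones 13, 6, 7 and 4, and 669, 6.20, 4.09 and 6.83 TPM in clones 15, 24, 18 and 20. In Irf7-low clones 12, 10, 3 and 9 it had 5.23, 1.98, 1.63 and 0.304 TPM, in clones 21 and 17 it had 1.06 and 1.28 TPM, and in clones 19 and 22 it was listed at 0. The difference was 3.13 ± 0.83 (SE), and 2.31 without clone 15, while its unadjusted p fell to 6.19e-05 without clone 15, against 0.00168 with it. The extreme library thus widened the spread as well as the mean. The rank slope was 4.89 (adjusted p = 0.00507). Reads of near-identical copies are split by estimation in Salmon, which leaves Ifit3 and Ifit3b uncertain as single genes, and so are the members of the Oas1, Ifi200, Slfn, Tgtp, Trim30 and class I H2 families.

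Rtp4, an interferon-induced receptor transporter protein (chromosome 16, 23520291 to 23614222, plus strand), parted the groups without overlap over all 16 libraries, with 10.6, 19.1 and 211 TPM (lowest, median, highest) in Irf7-high and 0.256, 3.31 and 8.0 TPM in Irf7-low monocytes. It had the lowest adjusted p of the named genes in the rank fit, 0.00127, with a slope of 4.48 ± 0.59 (SE). In the 6 middle libraries Rtp4 lay between the groups in its median, at 9.21, 15.9 and 20.8 TPM. Usp18, the protease that removes Isg15 and dampens receptor signalling, had 3.74, 7.70 and 155 TPM in Irf7-high and 0.189, 1.49 and 4.35 TPM in Irf7-low monocytes (rank slope 3.65, adjusted p = 0.00507). Rsad2, whose product viperin makes a nucleotide that stops viral RNA synthesis, had 1.83, 7.76 and 361 TPM in Irf7-high and 0.149, 1.17 and 2.66 TPM in Irf7-low monocytes (3.96, 0.0104). Both overlapped slightly between sets and not within them. Xaf1, Zbp1 and Epsti1 also passed the rank fit (slopes 3.95, 3.75 and 3.10, adjusted p 0.00507, 0.00648 and 0.00507). Ifi27l2a passed with all libraries (4.75, 0.0161) and not without clone 15 (adjusted p = 0.0744).

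Not every effector passed the rank fit. Mx1, a GTPase that blocks influenza virus, was at 103 TPM in clone 15, but its median was 0.788 TPM in Irf7-high and 0.178 TPM in Irf7-low monocytes (rank slope 2.32, adjusted p = 0.0904). The other libraries of both groups had at most 2.83 TPM of it. Ly6e, a membrane protein that restricts coronaviruses, had 54.7, 362 and 2381 TPM in Irf7-high and 42.9, 265 and 668 TPM in Irf7-low monocytes (rank slope 1.3, adjusted p = 0.406). Bst2, which tethers budding virions, had 19.9, 158 and 1119 TPM in Irf7-high and 9.82, 47.0 and 93.8 TPM in Irf7-low monocytes and passed the rank fit (3.02, 0.0374), but not without clone 15 (0.157).

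**Figure D2:**
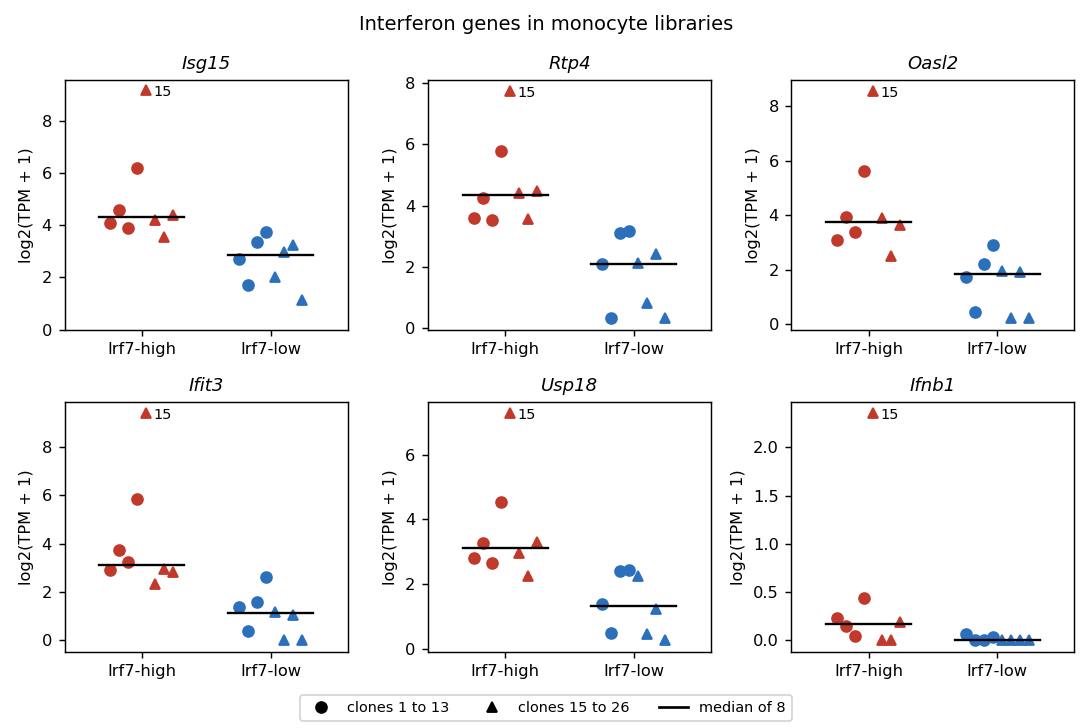
Interferon-stimulated genes in the 16 monocyte libraries as log2(TPM + 1), Irf7-high libraries left and Irf7-low libraries right in each panel, circles for clones 1 to 13 and triangles for clones 15 to 26, with clone 15 marked. Clone 15 is the highest library in each panel, with 577 TPM of Isg15, and in the panels other than Ifnb1 the rest of the Irf7-high libraries lie above the Irf7-low ones of the same set.

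The OAS family senses double-stranded RNA and makes a second messenger of the antiviral response. All 9 members were tested and had a difference above 0, with a median of 1.80 (1.26 without clone 15), and 6 rose in the rank fit, 5 without clone 15. Oasl2, its most abundant member, had 4.70, 12.7 and 376 TPM in Irf7-high and 0.168, 2.57 and 6.46 TPM in Irf7-low monocytes, a difference of 2.87 ± 0.72 (SE) with a rank slope of 4.62 (adjusted p = 0.00246). Oas1a had 0.742, 8.80 and 157 TPM in Irf7-high and 0.142, 1.08 and 5.99 TPM in Irf7-low monocytes (rank slope 3.79, adjusted p = 0.0067).

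The PYHIN family, DNA-binding proteins of the nucleus and cytosol, had the highest median of the lists, 2.13 (1.57 without clone 15). All 10 tested members had a difference above 0, 7 rose in the rank fit and 8 did so without clone 15. Ifi204 had 8.42, 14.4 and 332 TPM in Irf7-high and 0.208, 2.78 and 11.1 TPM in Irf7-low monocytes (rank slope 4.23, adjusted p = 0.00258). Mnda had 4.2, 12.6 and 290 TPM in Irf7-high and 0.132, 1.39 and 9.54 TPM in Irf7-low monocytes (4.19, 0.00469), and Mndal passed as well (3.79, 0.0138). The exception among abundant members was Aim2, the sensor that builds an inflammasome on cytosolic DNA, at 17.4, 36.6 and 132 TPM in Irf7-high and 7.87, 34.3 and 75.4 TPM in Irf7-low monocytes (0.60, 0.648).

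Schlafen genes regulate growth and transfer RNA in leukocytes, and 2 of 7 rose in the rank fit, with and without clone 15. Their median difference was 1.25, and 0.65 without clone 15. Slfn5 had 7.02, 10.3 and 217 TPM in Irf7-high and 0.454, 2.11 and 5.62 TPM in Irf7-low monocytes, with no overlap over all 16 libraries (rank slope 3.87, adjusted p = 0.00246). Slfn2, the most abundant, had 73.1, 139 and 339 TPM in Irf7-high and 11.7, 101 and 251 TPM in Irf7-low monocytes (1.45, 0.162). Of the guanylate-binding and immunity-related GTPases, which attack the vacuoles of intracellular microbes, 13 of 16 were tested, with a median difference of 1.11 (0.57 without clone 15), and 5 rose in the rank fit, as many as without clone 15. Irgm1 had 8.46, 12.9 and 147 TPM in Irf7-high and 3.08, 6.02 and 9.19 TPM in Irf7-low monocytes (rank slope 2.38, adjusted p = 0.0138). Tgtp2 (3.37, 0.0254) and Gbp2 (2.57, 0.0491) passed too, each at a median under 5 TPM in both groups. In the PARP, TRIM and SP100 families 8 of 21 tested genes rose in the rank fit, 6 without clone 15, with a median difference of 0.98 (0.61 without it). The most abundant of these did not: Sp140, a chromatin reader, had a median of 110 TPM in Irf7-high and 106 TPM in Irf7-low monocytes (rank slope 0.24, adjusted p = 0.872), and Sp100 had 94.8 and 62.6 TPM (1.43, 0.13). In the IFITM family, membrane proteins that hinder viral fusion, Ifitm3 rose with rank (2.71, 0.0187), though not without clone 15 (adjusted p = 0.0868), at 264, 601 and 2712 TPM in Irf7-high and 46.6, 209 and 400 TPM in Irf7-low monocytes. Its neighbour Ifitm2 had medians of 375 and 296 TPM (0.85, 0.162).

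Genes that make and receive the interferon signal had smaller median differences than the effector lists. Among 10 interferon ligand genes, 0 passed the filter of a mean of 1 TPM. Ifnb1, interferon beta, was at 4.10 TPM in clone 15 and at 0.351, 0.171, 0.141, 0.109 and 0.0294 TPM in Irf7-high clones 13, 4, 24, 6 and 7, and was listed at 0 in clones 18 and 20. In Irf7-low monocytes it was at 0.0448 TPM in clone 3 and 0.0248 TPM in clone 12 and listed at 0 in the other 6. Ifna5 reached 0.0898 TPM in 1 Irf7-high library and was listed at 0 in the rest. Such levels are close to nothing outside clone 15, and reads behind them are not known from TPM.

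Among 14 tested receptor and JAK-STAT genes the median difference was 0.50 (0.39 without clone 15), and 3 rose in the rank fit, 1 without clone 15. Stat2, a signal transducer of type I interferon, had 6.63, 10.2 and 198 TPM in Irf7-high and 3.55, 5.2 and 13.5 TPM in Irf7-low monocytes (1.89, 0.0547). The receptor subunits parted: Il10rb, part of the interferon lambda and interleukin 10 receptors, rose with rank (1.49, 0.0152), though not without clone 15 (adjusted p = 0.0649), and Ifngr1 had medians of 153 TPM in Irf7-high and 127 TPM in Irf7-low monocytes (0.27, 0.778). Among 8 tested interferon regulatory factors other than Irf7 the median difference was 0.68 (0.40 without clone 15) and 1 rose in the rank fit. This was Irf9, a DNA-binding subunit of the factor complex that the type I interferon receptor activates, at 10.7, 14.0 and 59.7 TPM in Irf7-high and 2.42, 5.97 and 14.6 TPM in Irf7-low monocytes (2.19, 0.00661, and 0.0177 without clone 15). Irf5 (1.53, 0.0683) and Irf2 (1.29, 0.161) missed the threshold. Irf3, the factor that starts interferon induction, had 23.8, 36.3 and 58.3 TPM in Irf7-high and 31.1, 35.0 and 114 TPM in Irf7-low monocytes (-0.37, 0.471).

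Of 22 tested nucleic acid sensors and adaptors 5 rose in the rank fit and 1 without clone 15, with a median difference of 0.62 (0.40 without it). Dhx58, a helicase that tunes the RNA sensors, had 6.91, 13.3 and 141 TPM in Irf7-high and 2.95, 5.81 and 9.21 TPM in Irf7-low monocytes (rank slope 2.57, adjusted p = 0.00661, and 0.00136 without clone 15). Unc93b1, which carries nucleic acid sensing Toll-like receptors to endosomes, passed with all libraries (1.51, 0.0375) and not without clone 15 (0.16). Tlr7 (2.07, 0.0631), Ifih1 (1.81, 0.135) and Irak1 (-0.09, 0.921) did not pass.

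Among 19 tested genes of MHC class I and the immunoproteasome, all with a difference above 0, the median was 0.75 (0.44 without clone 15) and 3 rose in the rank fit, 1 without clone 15. Psme2, a proteasome activator subunit, had 1047, 1771 and 4363 TPM in Irf7-high and 788, 1135 and 1495 TPM in Irf7-low monocytes (rank slope 1.09, adjusted p = 0.0375, and 0.154 without clone 15). B2m, the invariant light chain, had 740, 1029 and 5560 TPM in Irf7-high and 208, 811 and 1623 TPM in Irf7-low monocytes (1.46, 0.127). Of 11 tested chemokines 3 rose in the rank fit, 2 without clone 15, and the median difference was 1.15 (0.83 without it). Ccl6, a myeloid chemokine, had 103, 199 and 490 TPM in Irf7-high and 14.4, 64.7 and 150 TPM in Irf7-low monocytes (2.99, 0.00814). Ccl12, a monocyte attractant, passed as well (3.46, 0.00882), and Ccl9 did not (1.67, 0.205). Cxcl10, the chemokine most tied to interferon, was at 918 TPM in clone 15, and over the group it had 2.24, 14.3 and 918 TPM in Irf7-high and 0.597, 6.96 and 15.6 TPM in Irf7-low monocytes (2.65, 0.184). Several Irf7-low libraries had more of it than Irf7-high clones 18 and 20.

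Macrophage genes also rose with Irf7 in the rank fit. All 16 macrophage markers were tested and had a difference above 0, with a median of 1.39 (1.17 without clone 15), and 9 rose in the rank fit, 4 of them without clone 15. The genes C1qc, C1qb and C1qa, which make the complement opsonin C1q, lie side by side on chromosome 4 (136880129 to 136886187 for C1qb, 136889804 to 136893065 for C1qc and 136895917 to 136898803 for C1qa). They had the lowest unadjusted p of all genes between the groups in limma, led by C1qa at 9.18e-05, but each had an adjusted p of 0.390. C1qa was near the floor, from 0.0978 to 2.23 TPM in Irf7-high and from 0 to 0.509 TPM in Irf7-low monocytes. C1qb had 45.8, 21.5, 20.8 and 9.26 TPM in Irf7-high clones 13, 6, 7 and 4, and 154, 9.55, 62.9 and 19.9 TPM in clones 15, 24, 18 and 20. It had 11.7, 0.771, 4.82 and 1.17 TPM in Irf7-low clones 12, 10, 3 and 9, and 10.8, 2.50, 2.18 and 0.612 TPM in clones 21, 17, 19 and 22. The groups overlapped in both sets, by 1 Irf7-low library each, and the rank slope was 4.38 ± 0.76 (SE), adjusted p = 0.00621.

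Macrophage genes outside that list, singled out after their values were seen, behaved alike. Maf, a transcription factor of mature macrophages, had 3.62, 11.2 and 60.3 TPM in Irf7-high and 0.499, 1.6 and 5.70 TPM in Irf7-low monocytes (rank slope 3.23, adjusted p = 0.00246, and 0.00358 without clone 15). Selenop, a secreted selenium carrier, parted the groups over all 16 libraries, with 80.8, 90.1 and 463 TPM in Irf7-high and 9.49, 37.8 and 70.4 TPM in Irf7-low monocytes (3.02, 0.00299). Lgmn, a lysosomal protease, rose with rank (3.69, 0.0117), as did the sialic acid receptor Siglec1 (3.10, 0.0157). Cd5l (3.46, 0.0174) and Gas6 (2.87, 0.0204) rose as well, though not without clone 15 (adjusted p = 0.0549 and 0.0641). From the list itself Mertk, a receptor for dying cells that binds Gas6, rose (1.85, 0.0139).

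Of 15 classical monocyte markers 5 rose in the rank fit and 0 without clone 15, and the median difference was 1.39 (1.01 without it). Fcgr1, the high-affinity IgG receptor, had 1.27, 32.6 and 404 TPM in Irf7-high and 0.350, 7.17 and 23.8 TPM in Irf7-low monocytes (3.90, 0.0198, and 0.0855 without clone 15). Csf1r, the receptor for macrophage colony-stimulating factor, had 29.4, 79.5 and 258 TPM in Irf7-high and 3.97, 25.8 and 159 TPM in Irf7-low monocytes (rank slope 2.57, adjusted p = 0.0884). Ccr2, the receptor that draws monocytes from marrow, had medians of 44.4 TPM in Irf7-high and 18.4 TPM in Irf7-low monocytes (2.25, 0.0648). Ly6c2, the surface marker of classical monocytes, ran the other way in its medians, 1261 TPM in Irf7-high and 1490 TPM in Irf7-low monocytes (-0.23, 0.867). Of 15 lysosome genes, all with a difference above 0 and a median of 0.83 (0.65 without clone 15), 6 rose in the rank fit and 0 without clone 15. Ctsb, a cathepsin, had 444, 1433 and 3675 TPM in Irf7-high and 48.0, 571 and 1291 TPM in Irf7-low monocytes (2.81, 0.0457), and Psap, the saposin precursor, passed too (2.69, 0.0449). The macrophage markers summed to 3102, 7845 and 13674 TPM in Irf7-high and 1472, 3617 and 11760 TPM in Irf7-low monocytes. The part of macrophage content in the interferon gene differences was not tested.

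**Figure D3:**
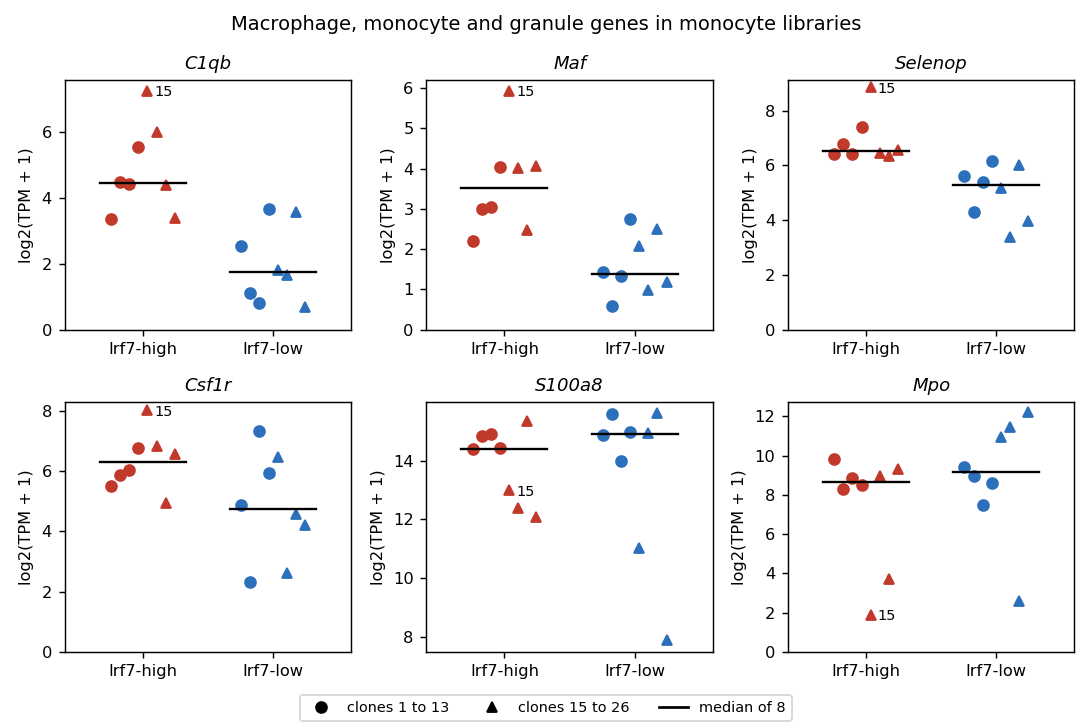
Macrophage, monocyte and granulocyte genes in the same 16 libraries as log2(TPM + 1), Irf7-high left and Irf7-low right, symbols as in the plot of interferon-stimulated genes. C1qb, Maf and Selenop sit higher in Irf7-high libraries, with Selenop at 80.8 TPM or more against 70.4 TPM or less, and S100a8 runs lowest in Irf7-low clones 22 and 17, with the other 6 Irf7-low libraries inside or above the range of the Irf7-high ones.

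Lists of other lineages had few or no rank calls and often differed between the sets. The erythroid and megakaryocyte list, with 3 of 9 genes tested, had a median of 1.43 (1.36 without clone 15), above those of most interferon lists. Pf4, a platelet chemokine, differed by 1.92 (unadjusted p = 0.0118, rank slope 3.22, adjusted p = 0.0585), Vwf, which tethers platelets, by 1.43 (unadjusted p = 0.0104), and the integrin subunit Itga2b by -0.93. These markers summed to 4.18, 55.9 and 341 TPM in Irf7-high and 12, 18.2 and 67.1 TPM in Irf7-low monocytes, while the globin gene Hba-a1 was listed at 0 in all 16 libraries. Their part in the interferon gene differences was not tested. None of the 20 neutrophil and secondary granule genes rose or fell in the rank fit, and 0 had an unadjusted p under 0.05 between the groups. Still, 18 of the 20 had a difference above 0, with a median of 0.75 (0.42 without clone 15). That median was 0.02 in clones 1 to 13 and 1.29 in clones 15 to 26. S100a8, a calcium-binding alarmin, had 4369, 21624 and 41618 TPM in Irf7-high and 237, 30470 and 49870 TPM in Irf7-low monocytes (rank slope 0.69, adjusted p = 0.798). Irf7-low clones 22 and 17, at 237 and 2067 TPM, lay below every Irf7-high library. Lactoferrin, Ltf, had 424, 13718 and 36121 TPM in Irf7-high and 1.15, 11234 and 48972 TPM in Irf7-low monocytes (2.90, 0.52). The 7 primary granule genes, made by earlier cells, had a median difference of -1.36 (-0.77 without clone 15), at 0.06 in clones 1 to 13 and -2.68 in clones 15 to 26. Mpo, the peroxidase of those granules, had 2.70, 412 and 917 TPM in Irf7-high and 4.95, 589 and 4796 TPM in Irf7-low monocytes (-2.74, 0.435), and Elane behaved likewise (-1.99, 0.52). Gfi1, a repressor that directs granulocyte fate, had 1.79, 12.4 and 21.8 TPM in Irf7-high and 10.2, 21.8 and 59.8 TPM in Irf7-low monocytes (-1.68, 0.148). Cell cycle genes had a median of -0.49, with 1 of 20 above 0 and 0 past the rank fit. That median was -0.20 without clone 15, -0.11 in clones 1 to 13 and -0.87 in clones 15 to 26. Hoxb8, carried by the transgene, had 138, 192 and 373 TPM in Irf7-high and 84.9, 195 and 554 TPM in Irf7-low monocytes (-0.09, 0.942).

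Outside the lists, Sesn1, a stress-responsive regulator of nutrient signalling, had 5.78, 9.44 and 35.5 TPM in Irf7-high and 1.79, 3.74 and 6.32 TPM in Irf7-low monocytes, with no overlap within either set (rank slope 1.98, adjusted p = 0.01). Tmem268 also passed (3.21, 0.00661). Cd74, the invariant chain of MHC class II, had 1.36, 19.4 and 80.7 TPM in Irf7-high and 0.686, 3.59 and 14.8 TPM in Irf7-low monocytes (3.34, 0.0712).

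**Figure D4:**
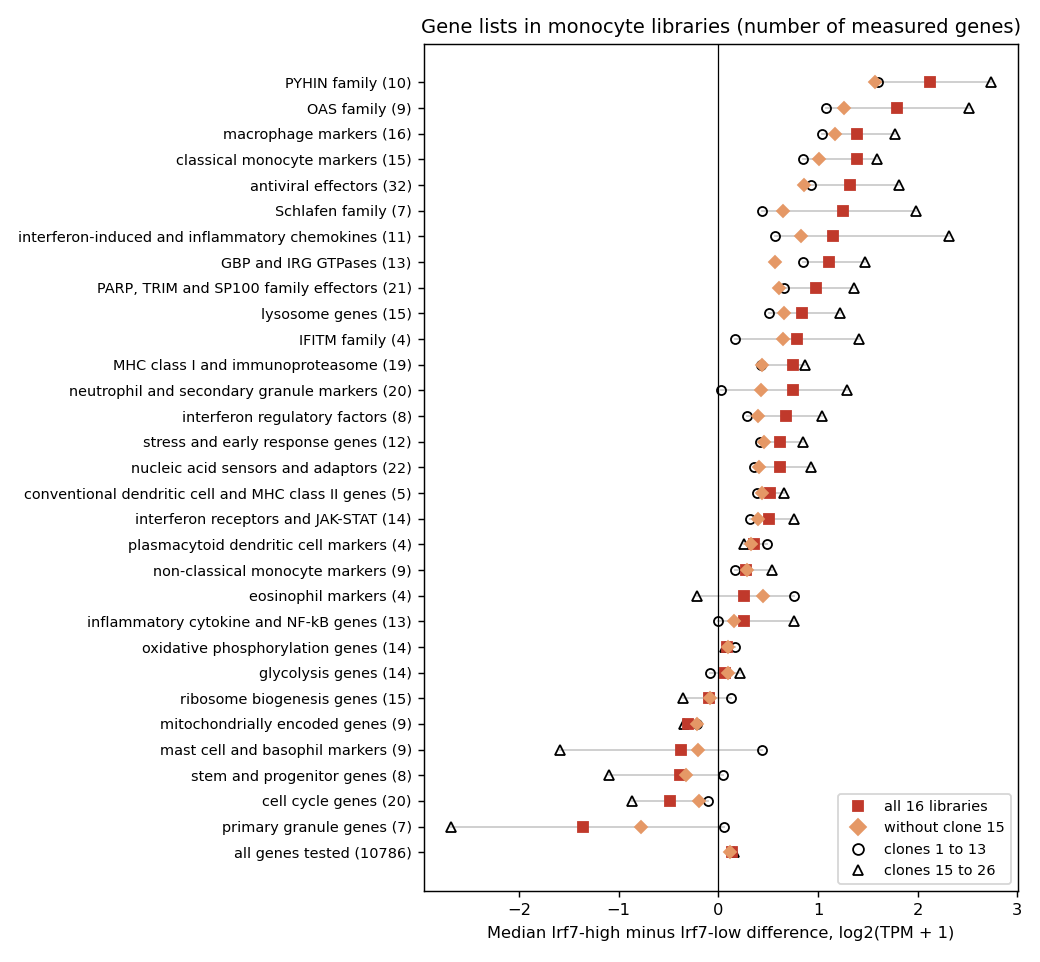
Median difference between Irf7-high and Irf7-low monocytes over the tested genes of each list, on the log2(TPM + 1) scale, with all 16 libraries (squares), without clone 15 (diamonds) and within each set (circles for clones 1 to 13, triangles for clones 15 to 26). The PYHIN and OAS families lie at 2.13 and 1.80 and all tested genes at 0.14, and primary granule genes differ between the sets.

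The sets of clones gave interferon differences in the same direction, larger in clones 15 to 26, which hold clone 15. The median over the 170 tested interferon list genes was 0.62 in clones 1 to 13 and 1.39 in clones 15 to 26, and over both sets it was 0.98, or 0.62 without clone 15. In the test of the difference between sets limma called 0 of 10786 genes, with 109 (1.01%) at an unadjusted p under 0.05. Fitted alone, clones 1 to 13 gave 23 calls in the rank fit, 20 of them among the 260, and clones 15 to 26 gave 0, with 1192 genes at an unadjusted p under 0.05.

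The progenitor libraries of the same clones were not used to form the groups and allow a test of Irf7 itself. Irf7 had 0.143, 0.983 and 2.90 TPM (lowest, median, highest) in progenitors of Irf7-high clones and 0, 0.647 and 2.44 TPM in progenitors of Irf7-low clones. The difference was 0.21 on the log2(TPM + 1) scale, and a two-sided exact permutation test within sets gave p = 0.516 over 4900 arrangements. Clone 15, extreme as a monocyte culture, had 2.02 TPM as a progenitor. No difference in progenitor Irf7 was detectable between the clones.

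Across genes the progenitor libraries gave 0 of 10723 calls in limma and 50 genes (0.466%) at an unadjusted p under 0.05, 31 of them (0.289%) higher in Irf7-high clones. Progenitor clones 21 (Irf7-low) and 24 (Irf7-high) stood apart, with 23247 genes listed at 0 in clone 21, against 14856 to 20098 in the other 23 libraries, and 8240 genes reaching 1 TPM in clone 24, the fewest. Without clone 24 there were 403 genes at an unadjusted p under 0.05, 370 of them higher in Irf7-high clones, and without clones 21 and 24 there were 590, most of them higher, still with 0 calls. Of the 115 interferon list genes tested in both states 1 was among the 50, 15 were among the 403 and 19 among the 590, all higher in Irf7-high clones. Over all 9927 genes tested in both states these counts were 37, 379 and 548, of which 29, 358 and 508 were higher. Isg15 had 0.321, 1.07 and 1.53 TPM in progenitors of Irf7-high clones and 0, 0.703 and 1.05 TPM in progenitors of Irf7-low clones. Rtp4 had 0.778, 3.65 and 9.16 TPM in progenitors of Irf7-high clones and 0, 3.45 and 9.09 TPM in progenitors of Irf7-low clones, so the gene that parted the monocytes covered one range in the progenitors. Of the 115 interferon list genes, 106 (92.2%) had a larger difference in monocytes than in progenitors, beside 6452 (65.0%) of the 9927 genes tested in both states. With progenitor clones 21 and 24 left out these counts were 98 (85.2%) and 5107 (51.4%). In monocytes 42 of the 115 reached a difference of at least 1, beside 464 (4.3%) of all 10786 genes tested there. In progenitors 0 of the 115 did so in either direction, or 5 without clones 21 and 24. Differences of that size were rare in progenitors among all 9927 genes too, at 85, or 107 without clones 21 and 24. The 0 is thus not particular to the interferon list genes.

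The test of the monocyte difference against the progenitor difference, with clone as a block, called 0 of 11086 genes for the 2 groups, and 485 (4.37%) had an unadjusted p under 0.05, 425 of them (3.83%) with the larger difference in monocytes. Without clone 24 these were 643 and 290, and without clones 21 and 24 they were 1162 and 447. With the rank of Irf7 in place of the groups it called 81 genes (0.731%), all with the larger slope in monocytes, and 36 of these were interferon list genes. Without clones 21 and 24 it called 61 genes with the larger slope in monocytes and 2 with the smaller. Oasl2 and Ifi204 (both adjusted p = 0.00213), Rtp4, Ifit3 and Usp18 (0.00314 each), C1qb (0.0023) and Maf (0.00213) were among the 81. Csf1r (0.431) was not. In progenitors Ifit3, Usp18 and Ifi204 reached at most 0.216, 0.715 and 0.754 TPM in any library, while Rtp4 reached 9.16 TPM. Levels near the floor hold the progenitor slope near 0 on log2(TPM + 1). For such genes a larger slope in monocytes follows from the monocyte slope alone, so the test adds little to the monocyte result.

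**Figure D5:**
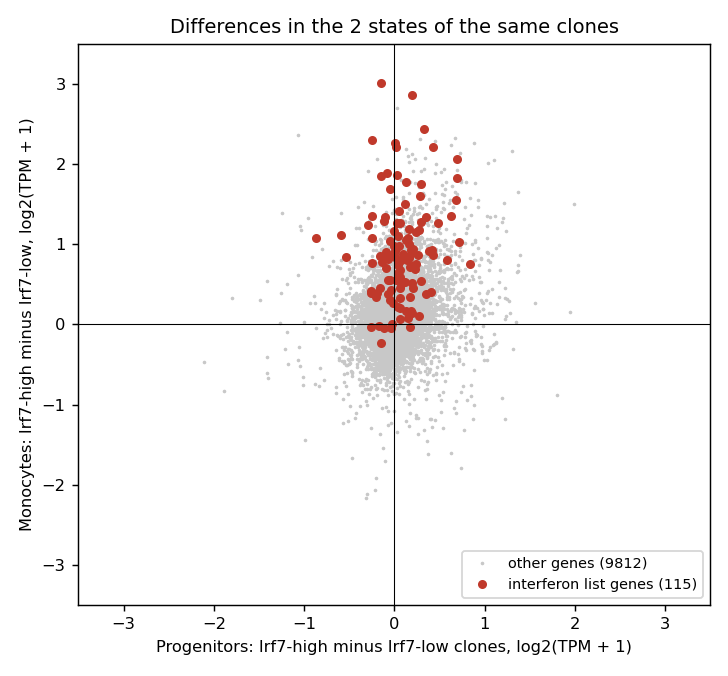
Difference between Irf7-high and Irf7-low clones in progenitor libraries (horizontal) and monocyte libraries (vertical) for 9927 genes tested in both, on the log2(TPM + 1) scale, with the 115 interferon list genes in colour. The interferon genes spread upward and stay within 1 of 0 along the horizontal axis, where only 85 of all 9927 genes lie at 1 or further from 0.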

How the data were processed

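The authors deposited 1 table of TPM per gene symbol for 48 libraries, made with Salmon on mm10 per the submitters' processing notes. Which annotation was used was not given in the sources used here. Of 34643 rows, 26 named like a calendar date were left out. Depth cannot be read from TPM, which leaves counting errors and floors out of reach, and the number of libraries limits the precision. A listed 0 can be a failed estimate, and a transcript class that grows lowers all others.

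The fits (limma 3.58.1, R 4.3.3) took genes averaging 1 TPM or more over the ranked libraries and used log2(TPM + 1), a pseudocount of 1 that understates the change of low genes, with a mean-variance trend, set as a covariate and two-sided Benjamini-Hochberg adjustment over all tested genes, threshold 0.05. The 22-library fit used the rank of Irf7 within its set. State differences were fitted with clone as a block, since the design text pairs the states by clone. Deviations from the group means went together between states (correlation over 0.1) in 7 of 16 clones, 1 in clones 1 to 13 and 6 in clones 15 to 26, so the pairing rests on the design text. Irf7 in progenitors was tested by exact permutation within sets. The group and rank fits in monocytes were run on simulated data with independent noise for each gene. The genes here vary together, so that run does not cover the setting of these data. The most alike pair of libraries had a correlation of 0.992, and no pair was identical. Python 3.11.15 was used for summaries and motif counts. Gene positions are from GENCODE on GRCm38, and promoter sequences from RefSeq.

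The members, gene lists and tests were chosen with earlier results of these data known. The rule for named genes took passing genes only, of which there were none between the groups, and then for each interferon list the 2 members with the highest mean TPM. All other genes named in the text were singled out after their values were seen. Alternatives covered the pseudocount, filter, scaling, set, variances, clone 15 and each clone left out. Some genes of these lists count in the totals and are not reported here by name.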

Additional observations from a re-analysis of the deposited data

Results flagged for a closer look

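Each gene named in the text was looked at in each group of 8 monocyte libraries for a single library far from the others on log2(TPM + 1), provided the group reached 1 TPM, in 148 pairs of gene and group. In all 28 pairs were flagged, 22 of them by clone 15, which is 1 library seen through many genes. A rate by chance of about 1 in 20 would hold for unrelated genes. The genes here vary together, many were named after their values were seen, and Irf7 chose the groups, so the count cannot be judged against that rate. Clone 15 stood above the other Irf7-high libraries with 1948 TPM of Irf7, 4.10 TPM of Ifnb1, 577 TPM of Isg15, 159 TPM of Ifit1, 361 TPM of Rsad2, 103 TPM of Mx1 and 155 TPM of Usp18. Among DNA-binding, Schlafen and GTPase genes it had 332 TPM of Ifi204, 217 TPM of Slfn5, 147 TPM of Irgm1, 247 TPM of Tgtp2 and 101 TPM of Gbp2. Among sensors and signalling genes it had 198 TPM of Stat2, 59.7 TPM of Irf9, 157 TPM of Tlr7, 81.0 TPM of Ifih1 and 304 TPM of Unc93b1. It also stood apart with 918 TPM of Cxcl10, 4363 TPM of Psme2, 144 TPM of Epsti1, 463 TPM of Selenop and 9.46 TPM of Mertk.

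Other libraries were flagged once each. In Irf7-high monocytes clone 18 was low in Irak1 at 20.4 TPM, clone 20 low in Ccl9 at 54.9 TPM and clone 4 low in C1qa at 0.0978 TPM. In Irf7-low monocytes clone 19 was high in Irf3 at 114 TPM, clone 21 low in Elane at 1.23 TPM and clone 17 low in Ifi27 at 0.451 TPM. Monocyte clone 8, in no group, was flagged as data outside the comparison, with Irf7 at 98.9 TPM, above all 8 Irf7-low libraries.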

How the results depend on the processing

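The 2-group test in monocytes gave 0 calls under every other setting but 2: leaving out clone 4 gave 1 call (range 0 to 1 over clones left out), and the rank of Irf7 over 22 libraries gave 260. That rank fit gave 83 calls without clone 15, 26 without clones 13 and 15, 0 without clones 9, 19 and 22, 23 in clones 1 to 13 only and 0 in clones 15 to 26 only. It gave 159 with a pseudocount of 5, 72 with no filter and 168 after rescaling without mitochondrial, Gm, -ps and -rs entries. Leaving out 1 clone at a time gave 49 (without clone 9) to 463 (without clone 1), with 100 without clone 13, 89 without clone 19, 119 without clone 22 and 151 without clone 3. The rank settings, and those without clones 13 and 15 or without clones 9, 19 and 22, were chosen after seeing the data, except the rank term itself. Progenitor fits and the 2-group test between states stayed at 0 calls in each alternative run, and without the replicate block that test also gave 0. Their counts at an unadjusted p under 0.05 moved: progenitors gave 50, 403 without clone 24, 590 without clones 21 and 24, and 515 in clones 1 to 13 only, and the test between states gave 485, 643 without clone 24 and 1162 without clones 21 and 24. The rank test between states gave 63 calls without clones 21 and 24, against 81. Irf7 in progenitors differed by 0.04 to 0.36 over clones left out, with no call.

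Of 2069 pairs of named gene and setting 1995 kept direction and side of the threshold and 44 moved past it. No gene had passed between the groups, so none could move back, and keeping the side of the threshold was nearly fixed in advance. Settings other than the rank fit gave at most 1 call, so nearly all moves came from the rank fit. The remaining 30 pairs, in 9 genes far from the threshold, changed sign. In clones 1 to 13 only Sp140 was at -0.061, S100a8 at -0.22, Mpo at 0.26, Cpa3 at 1.09 and Hoxb8 at 0.39. In clones 15 to 26 only Ifngr1 was at -0.079 and Irak1 at 0.00070. Without clones 9, 19 and 22 Ifngr1 was at -0.059, Sp140 at -0.041, Aim2 at -0.19, S100a8 at -0.034, Cpa3 at 0.19 and Hoxb8 at 0.11. Without clone 15 Sp140 was at -0.078, and without clones 13 and 15 at -0.072. With 1 clone left out the values ran from -0.060 to 0.388 for Ifngr1, -0.109 to 0.345 for Sp140, -0.237 to 0.069 for Irak1, -0.419 to 0.054 for Ly6c2, -0.417 to 0.77 for S100a8 and -0.179 to 0.088 for Hoxb8. The cause of these changes was not tested. TPM give no depth, so what depth limits is not known.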

Other observations

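Monocyte clone 8, which the ranking left out, had the third highest Irf7 of all 24 monocyte libraries, 98.9 TPM, and the other clone left out, 26, had 17.7 TPM. In clone 8 Isg15 was at 235 TPM, Ifit3 at 102 TPM, Rtp4 at 36.1 TPM, Ccl12 at 143 TPM and Ifnb1 at 0.873 TPM, and in clone 26 Isg15 was at 19.5 TPM, Ifit3 at 4.2 TPM and Rtp4 at 19.7 TPM. Clones 8, 13 and 15 were the 3 libraries with the most Isg15 and Ifit3 among all 24. Their Ifnb1 levels, 0.873, 0.351 and 4.10 TPM, were also the 3 highest of the 24 libraries. These genes and libraries were singled out after their values were seen.

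Metabolic genes had medians near that of all genes in the comparison of the groups. The 14 oxidative phosphorylation genes had a median difference of 0.08 and the 14 glycolysis genes of 0.07, against 0.14 for all tested genes, with 0 past the rank fit. Of 12 stress and early response genes, with a median difference of 0.62 (0.45 without clone 15), 2 rose in the rank fit and 0 without clone 15. Of 13 inflammatory cytokine and NF-kB genes, with a median of 0.25, 1 rose and 0 without clone 15. The 9 mitochondrially encoded genes all had a difference below 0, with a median of -0.31.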
